A study of Homo sapiens with 6 samples.

Results

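Translation initiation and elongation factors, with the factors that end translation, were followed in HaCaT cells, an immortalised human keratinocyte line. Members were taken by gene symbol: the EIF1 to EIF6 and EEF1 and EEF2 families, ETF1, GSPT1, PABPC1 and PABPC4, without the eIF2 kinases and without pseudogenes. The rule found 66 of the 21961 symbols in the count table, and it used no measured value. The study sequenced poly(A)-selected RNA in 6 libraries of 2 groups, titled mod and Nvs, with 3 libraries each. Per its design text all cells were irradiated with UVB, and 1 group was also given nanovesicles from beet, Beta vulgaris, which the text calls BVNV. The library labels give the treatment of mod as UV-induced and that of Nvs as control, and they name no vesicles. The values were not used to choose between these descriptions, and the group titles are kept throughout. No dose or time is given, and the replicates are not said to come from separate cultures, so the p-values describe library-to-library spread alone, possibly a technical one.

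Protein synthesis starts when the small ribosomal subunit, carrying eIF1, eIF1A, eIF3, eIF5 and the eIF2 complex with GTP and initiator tRNA, is brought to the capped end of an mRNA. The cap is bound by eIF4F, made of the cap-binding protein eIF4E, the scaffold eIF4G and the helicase eIF4A, and the 4E-BP proteins block eIF4E when mTORC1 is inactive. After start codon recognition eIF5B joins the large subunit, eEF1A then delivers aminoacyl-tRNA, eEF2 moves the ribosome along, and eRF1 with eRF3 release the finished chain. UV light and other stresses slow translation through phosphorylation of eIF2, for which eIF2B is the exchange factor, and of eEF2.

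The mod libraries held 45637046 to 51369628 counts and the Nvs libraries 41120058 to 44080808. Mitochondrially encoded RNA made up 30.5% ± 0.817 of them in mod but 52.6% ± 0.751 in Nvs (SD, 3 libraries each), and leaving these transcripts out before TMM scaling gave the same counts of members called, 33 higher and 3 lower. Marker levels are CPM by library total, with mitochondrial reads counted. All 10 keratinocyte markers exceeded 1 CPM on average, with summed levels of 28533 to 30958 CPM in mod and 22049 to 23518 in Nvs. Because the mitochondrial share differed, these sums do not compare keratinocyte content between the groups. On this scale all Nvs libraries lay above all mod libraries for KRT17 and SFN. The groups overlapped for KRT14, and the other keratinocyte markers were lower in Nvs. Of the fibroblast, melanocyte, and leukocyte and endothelial lists, 4 of 6, 4 of 6 and 5 of 6 genes had a row. The fibroblast list summed to at most 0.486 CPM in any library, the leukocyte and endothelial list to at most 0.895 and the melanocyte list to at most 7.26. Levels below are TMM-scaled CPM, read counts relative to library size, a method that centres the typical gene on no change. Fold changes are Nvs over mod on the log2 scale, from edgeR's quasi-likelihood test with Benjamini-Hochberg adjustment over 14617 genes, called at an adjusted p under 0.05. Scaled by library total instead, the median gene stood at -0.77, so every rise or fall is relative to the typical gene, and the value by library total is given beside it. In bulk RNA, fewer cells of a kind and less RNA per cell cannot be told apart.

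Relative to the typical gene, far more translation factors were higher in Nvs than lower. Of the 66 genes 64 passed the filter on low counts, and of these 33 rose, 3 fell and 28 were not called. Among all genes tested 43.3% were called, 22.8% as higher and 20.5% as lower. The libraries of Nvs all lay above those of mod for 35 of the 64 and all below for 4, where 27.0% and 26.7% of all genes did so. The median log2 fold change of the 64 was 0.27, against -0.01 over all genes tested. The 33 rises were modest, with a median fold of 1.52, and 5 reached 2-fold. These were EEF1B2, EIF3J, PABPC4, EIF5B and EIF1, and the same 5 were the members called higher by library total, where 4.03% of all genes were. Of the other 28, 18 were called lower by library total and 10 were not called. The 3 falls, EIF4G3, EIF4G1 and EIF2D, were called lower by either scaling. By library total 5 members were higher and 40 lower, with a median of -0.49, and 68.0% of all genes were called lower.

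**Figure D1:**
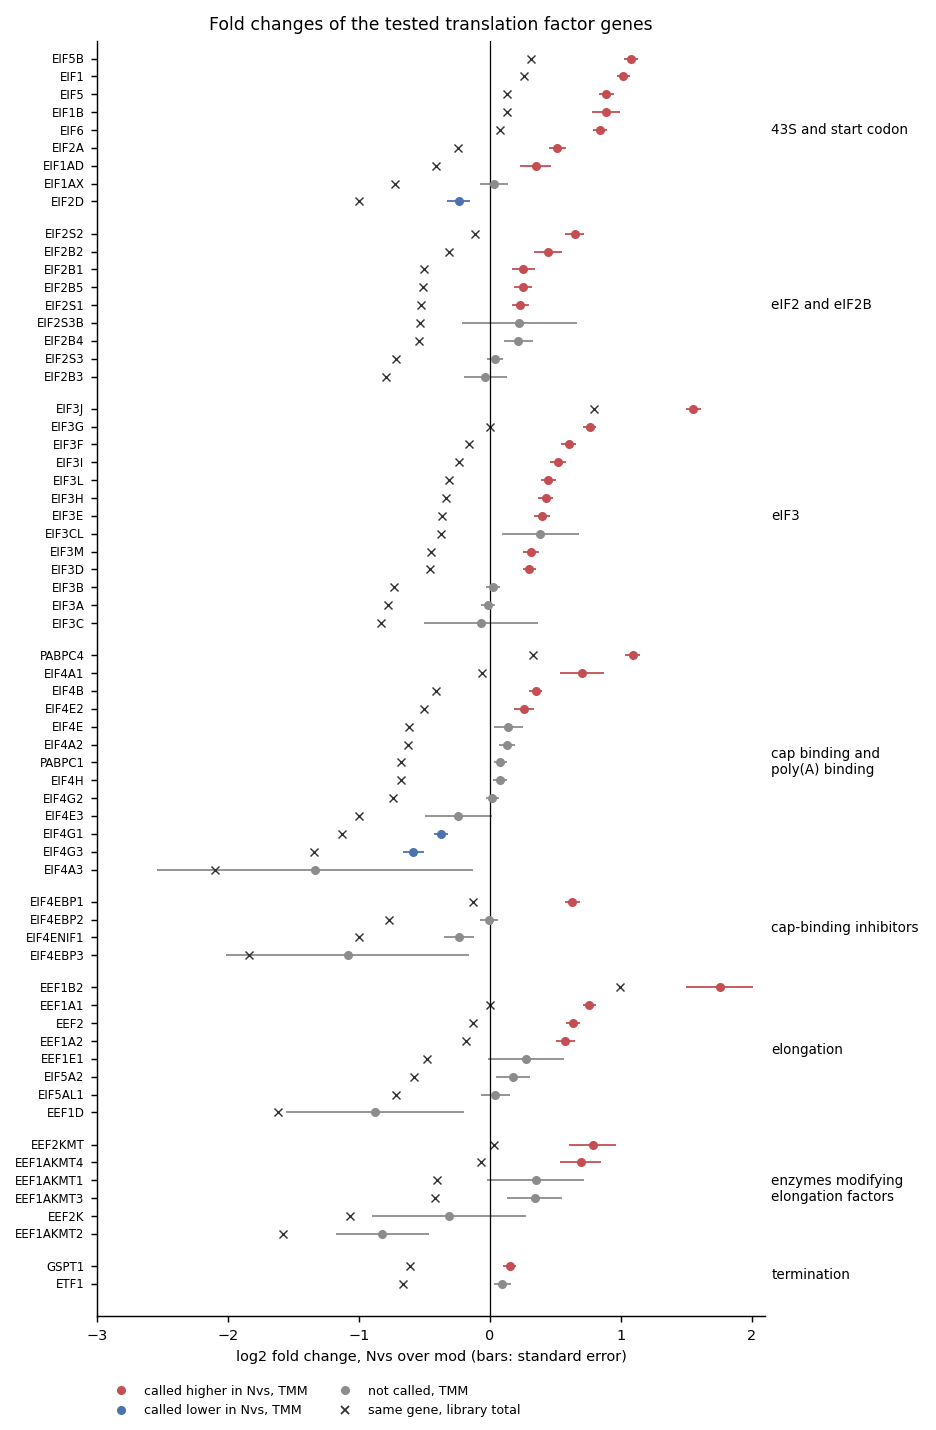
Log2 fold change of each of the 64 tested genes, Nvs over mod, grouped by role; circles with bars give the TMM-scaled value ± standard error and crosses the value scaled by library total (3 libraries a group). EIF3J, EEF1B2, PABPC4, EIF5B and EIF1 lie at or above 1 as circles and remain right of 0 as crosses, whereas EIF4G3 and EIF4G1 lie left of 0 on both.

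Together the members made up 1.82% ± 0.0128 of the counts outside the mitochondrial genome in mod and 2.32% ± 0.0127 in Nvs (exact permutation p = 0.1, two-sided, the smallest that 3 against 3 libraries allow). Most of that gain lay in the elongation factors eEF1A and eEF2. EEF1A1 and EEF2 went from 0.862% ± 0.00707 to 1.23% ± 0.0202 of those counts, and all the other members from 0.961% ± 0.00735 to 1.09% ± 0.0117 (exact permutation p = 0.1 for each). Counted against whole libraries, the members went from 1.27% ± 0.0169 to 1.10% ± 0.0229.

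Factors of start codon selection and subunit joining were listed together with EIF6, EIF1AD, EIF2A and EIF2D, whose roles are given below. In this list 7 of 9 tested genes rose and 1 fell, with a median of 0.84, or 0.08 by library total. The shares were 77.8% higher and 11.1% lower, beside 22.8% and 20.5% of all genes. EIF1, which keeps the scanning ribosome from settling on wrong start codons, had 291, 297 and 292 CPM in mod and 610, 563 and 608 CPM in Nvs. Every Nvs library lay far above every mod library, and the log2 fold change was 1.02 ± 0.05 (SE, edgeR adjusted p = 4.96e-09), or 0.26 by library total. EIF1B, its close relative, went from 8.54, 9.48 and 8.51 to 16.5, 16.2 and 16.4 CPM, a rise of 0.89 ± 0.11 that was 0.13 and not called by library total.

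EIF5, the GTPase activator that lets eIF2 hydrolyse its GTP at the start codon, had 137, 148 and 152 CPM in mod and 286, 254 and 269 in Nvs. It rose by 0.89 ± 0.06 (edgeR adjusted p = 7.30e-08), which by library total was 0.13 and not called. EIF5B, the GTPase of subunit joining at chromosome 2, 99337353 to 99401326, had 238, 226 and 228 CPM in mod and 499, 459 and 500 in Nvs. The groups were again wide apart, with 1.08 ± 0.05 (edgeR adjusted p = 4.65e-09) and 0.32 by library total. EIF6, which holds the large subunit away from the small one, went from 76.8, 76.3 and 71.2 to 137, 134 and 130 CPM (0.84 ± 0.05, edgeR adjusted p = 5.05e-08, 0.08 by library total).

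EIF2A, an alternative carrier of initiator tRNA, and EIF1AD, which acts in ribosome assembly, rose by 0.51 ± 0.07 and 0.35 ± 0.12, at -0.25 and -0.41 by library total. The call of EIF1AD was lost in 5 of 6 fits with a library left out, at adjusted p up to 0.103 (edgeR). The exceptions in this list were EIF1AX and EIF2D. EIF1AX, the X-linked gene of eIF1A, which acts beside eIF1 on the same scanning ribosome, had 25.4, 28.1 and 27.1 CPM in mod and 31.1, 23.1 and 28.3 in Nvs. Its groups overlapped and it was not called (0.03 ± 0.11, -0.73 by library total). EIF2D, which acts in non-canonical initiation and ribosome recycling, went from 31.1, 27.8 and 26.3 to 24.1, 23.6 and 24.6 CPM. That fall was small (-0.24 ± 0.09, edgeR adjusted p = 0.0455, -0.998 by library total), and it was lost in 5 of 6 fits with a library left out, at adjusted p up to 0.186 without mod replicate 1.

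**Figure D2:**
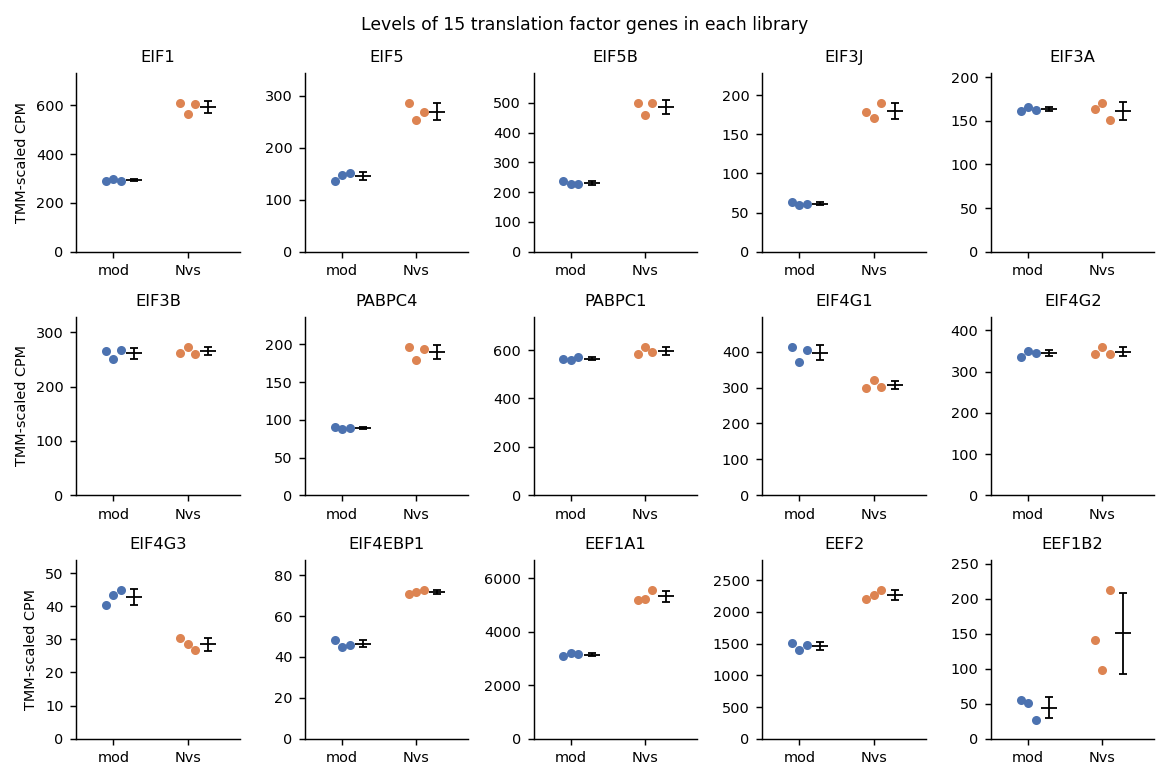
TMM-scaled CPM of 15 genes in each of the 6 libraries (points), with the group mean ± SD beside them (n = 3). EIF1, EIF5, EIF5B, EIF3J and PABPC4 separate widely, EIF3A, EIF3B and EIF4G2 overlap between groups, EIF4G1 and EIF4G3 are lower in Nvs, and EEF1B2 is spread out within each group.

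Of 9 tested genes of eIF2 and its exchange factor eIF2B, 5 rose and 4 were not called, with a median of 0.23, or -0.53 by library total. The share that rose was 55.6%, beside 22.8% of all genes. The eIF2 complex did not move as a unit. Its beta subunit gene EIF2S2 had 92.8, 98.6 and 84.4 CPM in mod and 157, 132 and 144 in Nvs, a rise of 0.65 ± 0.07 (edgeR adjusted p = 8.89e-06) that was -0.11 by library total. EIF2S1, the alpha subunit whose phosphorylation slows initiation, had 55.8, 60.5 and 57.7 CPM in mod and 72.7, 63.4 and 68.1 in Nvs. The gap between its groups was narrow, and the rise of 0.23 ± 0.07 was -0.53 by library total. Its edgeR adjusted p was 0.0668 without mod replicate 1, 0.0607 without mod replicate 3 and 0.0561 without Nvs replicate 1. The gamma subunit gene EIF2S3 had 64.0, 65.1 and 64.5 against 64.0, 64.3 and 70.8 CPM and was not called (0.04 ± 0.06, -0.72 by library total). Of the 5 subunits of the exchange factor eIF2B, EIF2B1, EIF2B2 and EIF2B5 rose by 0.26, 0.44 and 0.25, at -0.50, -0.32 and -0.51 by library total. EIF2B5, its catalytic subunit, went from 54.4, 55.2 and 50.6 to 67.9, 63.5 and 59.3 CPM, and without mod replicate 3 its edgeR adjusted p was 0.0771. EIF2B1 was lost in 4 of 6 such fits, at adjusted p up to 0.134. EIF2B3 and EIF2B4 stood at -0.03 ± 0.17 and 0.22 ± 0.11 and were not called.

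Within eIF3, the largest initiation factor and the platform on which the preinitiation complex assembles, fold changes ran from -0.07 to 1.55. Of 13 tested rows 9 rose and the other 4 were not called, with a median of 0.40, or -0.36 by library total. The share that rose was 69.2%, beside 22.8% of all genes. EIF3J, the loosely bound subunit that sits near the decoding centre, at chromosome 15, 44537057 to 44563029, had 63.2, 59.6 and 60.8 CPM in mod. In Nvs it had 178, 170 and 190 CPM, a mean 2.93 times that of mod. The log2 fold change was 1.55 ± 0.06 (edgeR adjusted p = 3.98e-10) and 0.79 by library total, with 1.51 to 1.59 when each library was left out in turn.

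The structural subunits moved less. EIF3A, the largest subunit and scaffold of the complex, had 162, 166 and 162 CPM in mod and 163, 170 and 151 in Nvs, and EIF3B, the scaffold of its mobile arm, had 265, 251 and 268 against 262, 274 and 260. The groups of both overlapped, and neither was called (-0.02 ± 0.06 and 0.02 ± 0.05, with -0.78 and -0.74 by library total). EIF3G, an RNA-binding subunit on that arm, went from 105, 104 and 106 to 174, 176 and 185 CPM (0.76 ± 0.05, edgeR adjusted p = 6.33e-08), a value of 0.00 by library total. EIF3I, of the same arm, rose by 0.52 ± 0.06, and EIF3F, a core subunit, by 0.60 ± 0.06, with -0.24 and -0.16 by library total. EIF3L, EIF3H, EIF3E, EIF3M and the cap-contacting EIF3D rose by 0.45, 0.42, 0.40, 0.31 and 0.30, and all 5 were between -0.46 and -0.31 by library total. EIF3C, a core subunit with a near-identical copy EIF3CL, could not be read, because its counts of 2145, 4824 and 1238 in mod and 2343, 524 and 1199 in Nvs were uneven in either group.

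Among the factors that bind the cap and the poly(A) tail, 4 of 13 tested genes rose, 2 fell and 7 were not called, with a median of 0.08, or -0.68 by library total. These shares, 30.8% higher and 15.4% lower, were near those over all genes, 22.8% and 20.5%. Both falls were in genes of the scaffold eIF4G. EIF4G1, the main eIF4G at chromosome 3, 184314495 to 184335358, had 414, 372 and 406 CPM in mod and 298, 321 and 301 in Nvs. All Nvs libraries lay below all mod libraries, and the log2 fold change was -0.37 ± 0.06 (edgeR adjusted p = 0.000117), or -1.13 by library total. EIF4G3, its paralogue, went from 40.3, 43.4 and 44.9 to 30.5, 28.5 and 26.6 CPM (-0.59 ± 0.08, edgeR adjusted p = 5.30e-05, -1.34 by library total). EIF4G2, which lacks the eIF4E-binding site and serves cap-independent initiation, had 337, 351 and 346 against 342, 361 and 343 CPM and was not called (0.02 ± 0.05, -0.74 by library total).

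EIF4E, the cap-binding protein, had 14.8, 16.1 and 17.1 CPM in mod and 16.3, 19.8 and 16.8 in Nvs, with overlapping groups (0.14 ± 0.11, edgeR adjusted p = 0.341, -0.62 by library total). EIF4E2, a cap-binding relative that represses translation, rose by 0.26 ± 0.08, or -0.50 by library total. Its edgeR adjusted p was 0.0710 without mod replicate 2 and 0.0622 without Nvs replicate 3. EIF4E3, at 5.32 ± 1.16 and 4.51 ± 1.67 CPM, was not called. The helicase gene EIF4A2 had 145, 167 and 155 CPM in mod and 177, 170 and 164 in Nvs (0.13 ± 0.06, not called, -0.63 by library total). Its cofactor EIF4B rose from 142 ± 2.81 to 181 ± 5.65 CPM (0.35 ± 0.05, -0.41 by library total), and the related EIF4H was not called at 0.08 ± 0.05. EIF4A1 rose by 0.70 ± 0.17, or -0.06 by library total, but its 227 to 388 reads a library are few for a gene that proliferating cells express strongly. Rows of its 5 processed copies summed to 399 to 789 reads. Its level is uncertain, and the cause of its low count was not tested.

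The poly(A)-binding proteins, which tie the mRNA tail to eIF4G, parted. PABPC4, an inducible form at chromosome 1, 39560816 to 39576790, had 91.1, 88.0 and 88.7 CPM in mod and 197, 179 and 194 in Nvs. Its level was more than 2-fold higher on average, with 1.09 ± 0.05 (edgeR adjusted p = 5.02e-09) and 0.33 by library total. PABPC1, the main cytoplasmic form, had 564, 558 and 573 CPM in mod and 584, 615 and 594 in Nvs. Its groups did not overlap, but the difference was 0.08 ± 0.05 and was not called (edgeR adjusted p = 0.198, -0.68 by library total). By deposited FPKM PABPC1 was still the more abundant in Nvs, at 47.9 ± 1.30 against 14.2 ± 0.737 for PABPC4. In mod these were 76.6 ± 0.327 and 11.2 ± 0.198. The lengths behind these values were 9585 and 10316 bases and need not be those of the transcripts, so the levels are approximate.

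Of the 4 genes that restrain eIF4E, 1 was called, as higher. That share, 25%, was near the 22.8% of all genes called higher. EIF4EBP1, the 4E-BP best known as an mTORC1 substrate, had 48.4, 45.0 and 45.9 CPM in mod and 71.0, 71.8 and 72.7 in Nvs (0.63 ± 0.06, edgeR adjusted p = 1.75e-06, -0.13 by library total). Its groups were tight and far apart. EIF4EBP2 had 58.3, 58.7 and 58.5 against 60.1, 52.8 and 61.5 CPM and was not called (-0.01 ± 0.07, -0.77 by library total). EIF4ENIF1, the eIF4E transporter of processing bodies, stood at -0.24 ± 0.12 (edgeR adjusted p = 0.118), and EIF4EBP3 had at most 31 reads in a library.

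The main elongation factor genes rose relative to the typical gene. By library total EEF1A1 was near 0 and EEF2 was slightly lower. EEF1A1, which brings aminoacyl-tRNA to the ribosome, had 3080, 3199 and 3153 CPM in mod and 5198, 5213 and 5552 in Nvs. All Nvs libraries were above all mod libraries, and the log2 fold change was 0.76 ± 0.05 (edgeR adjusted p = 7.75e-08), but the value by library total was -0.00 (adjusted p = 0.990). Rows of 18 processed copies of EEF1A1 held 6170 to 7086 reads a library, against 165017 to 208748 for the gene itself. EEF2, the translocase, went from 1515, 1394 and 1481 to 2199, 2264 and 2346 CPM (0.63 ± 0.05, edgeR adjusted p = 5.62e-07). By library total it was -0.13 and called lower (edgeR adjusted p = 0.0286). EEF1A2, the paralogue typical of muscle and neurons, was present at 46.8, 39.1 and 42.3 CPM in mod and 62.2, 65.2 and 63.4 in Nvs (0.57 ± 0.07, -0.18 and called lower by library total). Its deposited FPKM of 11.5 ± 0.951 in mod and 10.1 ± 0.244 in Nvs stood far below those of EEF1A1, 404.5 ± 11.8 and 405 ± 12.2. These levels are approximate, because the length behind the EEF1A1 values, 10104 bases, exceeds the gene's RefSeq span of 5283.

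EEF1B2, an exchange factor subunit that reloads eEF1A, had the largest fitted change, but its libraries were uneven. It had 55.3, 51.4 and 27.1 CPM in mod and 141, 98.6 and 212 in Nvs, so mod replicate 3 and Nvs replicate 3 lie apart in opposite directions. The groups did not overlap, and the log2 fold change was 1.75 ± 0.26 (edgeR adjusted p = 9.66e-05, 0.99 by library total). It was 1.48 without mod replicate 3 and 1.42 without Nvs replicate 3. Rows of 4 processed copies of EEF1B2 held 858 to 1321 reads a library, against 1588 to 7090 for the gene itself. Its level is therefore uncertain, and whether reads were divided between these rows was not tested. Of its partners, EEF1D had 136, 144 and 1171 reads in mod and 137, 210 and 84 in Nvs, and EEF1G was not found in the count table. EIF5A, which carries hypusine and helps the ribosome past prolines, had 2 to 16 reads a library and was not tested. Its near-identical intronless copy EIF5AL1 had 469 to 990 reads, and whether reads of the pair were divided was not tested. EIF5A2 was not called (9.32 ± 0.753 to 10.5 ± 0.597 CPM, 0.18 ± 0.13).

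Many mRNAs of the translation machinery begin with a C followed by a run of C and T, the terminal oligopyrimidine (TOP) tract through which mTORC1 and LARP1 control their translation and stability. RefSeq start regions of members (GRCh38.p14) are shown so that their first bases can be compared. Each line runs from 10 bases before the annotated start to 20 from it, so that base 11 is the start. The lines cover classical TOP mRNAs, members that rose most, the 2 eIF4G genes that fell and EIF4E. Capitals mark a C followed by at least 4 C or T whose C lies within 10 bases of the start, taking the C nearest to it.
EEF1A1 (chr6:73521013-73521042, minus strand): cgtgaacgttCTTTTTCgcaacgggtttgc
EEF2 (chr19:3985444-3985473, minus strand): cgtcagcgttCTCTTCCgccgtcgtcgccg
EIF3F (chr11:7987327-7987356, plus strand): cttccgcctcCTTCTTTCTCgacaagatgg
EIF4B (chr12:53006446-53006475, plus strand): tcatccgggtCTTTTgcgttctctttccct
EEF1B2 (chr2:206159599-206159628, plus strand): aagtggccccagcctcgaggccgggcgtct
EIF3J (chr15:44537137-44537166, plus strand): ccgccgtgctaaCTCCTCgctagctctccc
EIF1 (chr17:41688875-41688904, plus strand): ccgccCCTCTgccccagtcactgagccgcc
EIF5B (chr2:99337379-99337408, plus strand): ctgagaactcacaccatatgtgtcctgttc
EIF4G1 (chr3:184314596-184314625, plus strand): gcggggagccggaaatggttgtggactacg
EIF4G3 (chr1:21111364-21111393, minus strand): ttCTTTCCagcaatcccacagagtattgat
EIF4E (chr4:98929114-98929143, minus strand): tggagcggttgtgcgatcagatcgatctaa
In EEF1A1, EEF2, EIF3F and EIF4B the marked C was the annotated start itself. The run of C and T also reached upstream of that C, by 2 bases in EEF1A1 and EEF2, 1 in EIF4B and 4 in EIF3F. In EIF3J it began 2 bases after it, in EIF1 and EIF4G3 it lay before it, and EIF5B, EIF4G1 and EIF4E had none in this window. EEF1B2, which is both a classical TOP mRNA and the member with the largest fitted rise, had none either. EIF4G2, not shown, had a tract of 7 bases that began 1 base after the start. PABPC4, also among the largest rises, had no promoter sequence. A C at the start itself was not particular to classical TOP members. It was also found in 8 other members, none of them shown. Of these EIF2A, EIF3D and EIF3M rose, EIF2D fell, EIF2S3, EIF2S3B and EIF4A2 were not called and EIF3K was not tested. Within 10 bases, 4 of 5 classical TOP members with a promoter sequence had a tract, and 41.3% of the 46 other members. With the C at the start itself, a setting chosen after the data were seen, these were 4 of 5 and 17.4%. The annotated start is a single position and need not be the one these cells use.

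A promoter sequence was at hand for 51 of the 66 members. A tract on the gene's strand with its C within 10 bases of the start was found in 23 of them, 45.1% (95% Wilson interval 32.3 to 58.6), in 33.3% of all 27305 promoters and in 84.6% of 65 cytosolic ribosomal protein genes. With the C at the start itself, a setting chosen after the data were seen, the shares were 23.5%, 4.04% and 64.6%. The median log2 fold change was 0.24 over the 22 tested members with the tract and 0.22 over the 27 without. With the C at the start itself they were 0.31 over 11 genes and 0.16 over 38. Of 10 genes listed as classical TOP mRNAs, 9 were in the count table, and of these 7 rose, or 77.8%, beside 22.8% of all genes. The 2 not called were PABPC1 and EEF1D, whose libraries were uneven, and the median of the 9 was 0.42, or -0.33 by library total. Of 80 tested ribosomal protein genes, 74 were called higher, or 92.5%, and 4 lower, beside 22.8% and 20.5% of all genes. Their median was 1.13, or 0.37 by library total, and the lowest value was -8.06. By library total 59 were called higher and 6 lower, beside 4.03% and 68.0% of all genes.

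Of 6 tested enzymes that modify the elongation factors 2 rose and 4 were not called. The share that rose was 33.3%, beside 22.8% of all genes. EEF2KMT and EEF1AKMT4, lysine methyltransferases of which the former acts on eEF2, rose from 4.67 ± 0.687 to 8.05 ± 1.26 and from 4.89 ± 0.0964 to 7.91 ± 0.811 CPM (0.79 ± 0.18 and 0.69 ± 0.16), with 0.03 and -0.07 by library total. EEF2K, the kinase that inactivates eEF2, had 8 to 78 reads a library and was not called (-0.31 ± 0.59). Both termination factors changed little. ETF1, which encodes eRF1, had 83.9, 97.4 and 92.0 CPM in mod and 93.1, 96.0 and 103 in Nvs and was not called (0.10 ± 0.07, -0.67 by library total). GSPT1, which encodes eRF3a, went from 89.3, 89.1 and 87.5 to 99.5, 98.1 and 97.4 CPM, a rise of 0.15 ± 0.05 (edgeR adjusted p = 0.0291) that was -0.61 by library total and was lost in 4 of 6 fits with a library left out, at adjusted p up to 0.167 without mod replicate 3.

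Ratios of counts between members of the same library do not depend on how libraries are scaled. The 19 ratios computed were chosen after the values were seen, in part by setting a member that rose against one that was not called, so they are given as a description, with no test. The ratio of EIF3J to EIF3A was 0.391, 0.360 and 0.374 in mod and 1.09, 1.00 and 1.26 in Nvs, a 2.97-fold shift. That of PABPC4 to PABPC1 was 0.161, 0.158 and 0.155 in mod and 0.338, 0.291 and 0.327 in Nvs, a 2.01-fold shift. EIF1 moved against EIF1AX by 1.99-fold (10.9 ± 0.475 to 21.8 ± 2.42) and EIF5B against EIF1AX by 2.07-fold.

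Smaller shifts were seen inside complexes. EIF4G1 against EIF4G2 went from 1.15 ± 0.0864 to 0.880 ± 0.00918, and EIF4G3 against EIF4G2 from 0.124 ± 0.00501 to 0.0819 ± 0.00632. EIF2S2 moved 1.52-fold up against EIF2S3, and EIF4EBP1 moved up 1.41-fold against EIF4E and 1.56-fold against EIF4EBP2. Groups overlapped for 3 ratios, EIF3B to EIF3A (1.60 ± 0.0767 and 1.65 ± 0.0702), GSPT1 to ETF1 (0.977 ± 0.0783 and 1.01 ± 0.0611) and EEF1A2 to EEF1A1.

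**Figure D3:**
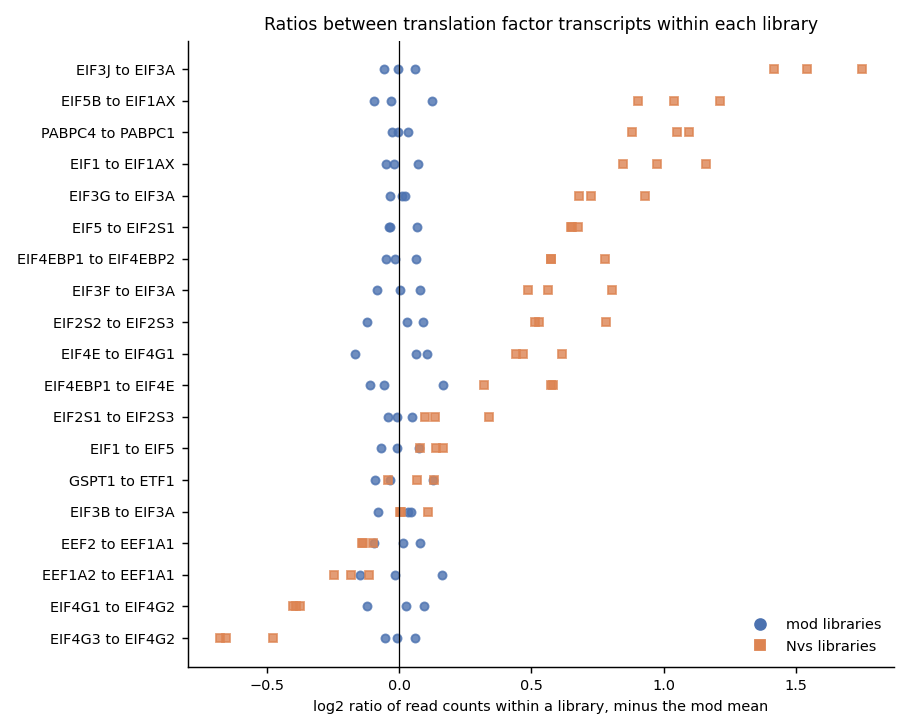
Log2 ratio of the counts of 2 genes within each library, minus the mean of the mod libraries, for 19 ratios; circles are mod and squares Nvs libraries. The Nvs libraries lie furthest right for EIF3J to EIF3A, where the mean shift is 1.57, and by 1.01 for PABPC4 to PABPC1, and they overlap mod for EIF3B to EIF3A.

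Not every member could be read. In 12 of the 66 the highest CPM was more than 2 times the lowest, or the lowest was 0, within mod or within Nvs. EIF4A3, a helicase of the exon junction complex, had 3307, 52 and 69 reads in mod and 41, 42 and 598 in Nvs. Its fitted log2 fold change of -1.34 ± 1.21 became 2.77 (edgeR adjusted p = 0.0469) without mod replicate 1 and -3.77 without Nvs replicate 3. EEF1D changed in the same way, from -0.88 ± 0.68 to 1.03 without mod replicate 3 (edgeR adjusted p = 0.0387), and by library total it was -1.62 and called lower. EIF3K, a core eIF3 subunit, had 2 reads in 1 library and 0 in the others and was not tested. These rows were counted per symbol by a method not given in the sources used here, and the cause of their values was not tested. Without the 12, 32 of 54 genes were called higher and 3 lower, with a median of 0.33. The share called higher was then 59.3%, against 51.6% of the 64 tested members. Leaving them out was decided after the data were seen. It was not done for all genes, so the 22.8% called higher among those is no matched share.

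**Figure D4:**
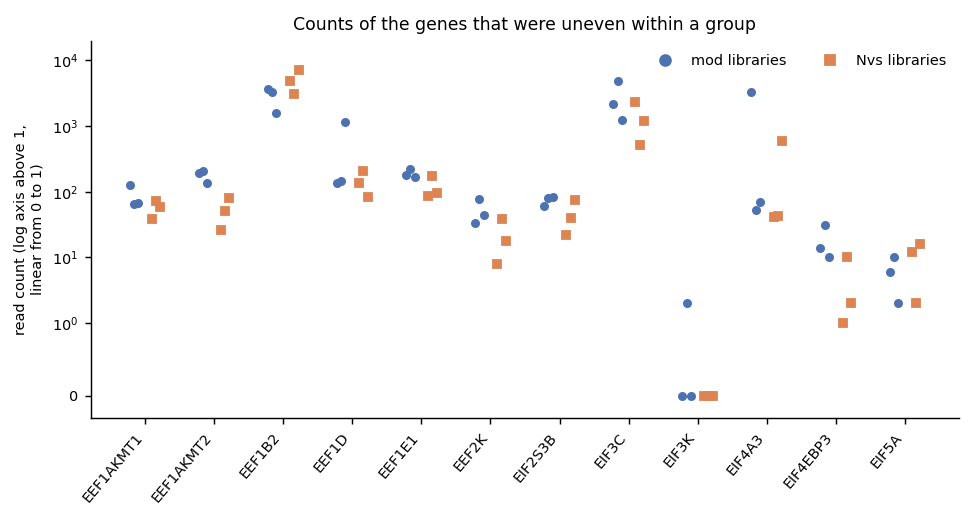
Read counts in each library of the 12 genes whose highest level was over 2 times the lowest within a group; the axis is logarithmic above 1 and linear from 0 to 1. EIF4A3 ranges from 52 to 3307 reads within mod and EEF1D from 136 to 1171, while EIF3K is at 0 in 5 of 6 libraries.

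Fold changes of all genes followed genomic span in these libraries, and the members shared that trend. Across the 64 members Spearman's rho between RefSeq span and log2 fold change was -0.37, against -0.40 across 12337 tested protein-coding genes; genes of the same libraries are not independent. In spans under 5 kb, the median was 0.82 for 6 members and 0.44 for all genes. From 5 to 10 kb the medians were 0.44 for 11 members and 0.24 for all genes, and from 10 to 20 kb 0.28 for 14 and 0.13. From 20 to 50 kb they were 0.20 for 26 members and -0.03, and at 50 kb or more -0.24 for 7 members and -0.24. EIF5B, which spans 63938 bases and rose by 1.08, and EIF3J, with 25657 bases and 1.55, stood far above their bins, and EIF4G1, with 20753 bases and -0.37, stood below its bin. EIF4G3 spans 370606 bases.

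**Figure D5:**
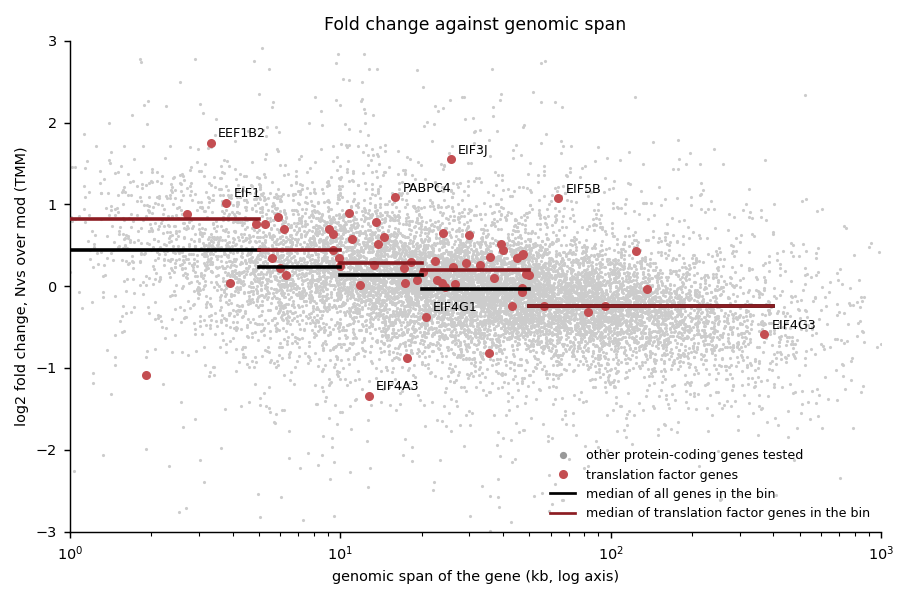
Log2 fold change (TMM) against genomic span in kb on a log axis, for the 64 members (red) and all other tested protein-coding genes (grey, those beyond 3 on either side not drawn); lines give medians in 5 span bins. The members' median is 0.82 under 5 kb and falls to -0.24 at 50 kb or more, where it meets that of all genes.

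Lists of neighbouring parts of the pathway, drawn up by function, are read against the 22.8% of all genes called higher and the 20.5% called lower. Of 5 tested genes of ribosome rescue and recycling 2 rose and 2 fell. NEMF, which tags chains on stalled large subunits, went from 48.5 ± 2.84 to 132 ± 9.28 CPM (1.44 ± 0.07, edgeR adjusted p = 2.84e-09, 0.68 by library total), and PELO, which splits stalled ribosomes, rose by 0.42 ± 0.09, or -0.34 by library total. HBS1L, the partner of PELO, and the recycling factor ABCE1 fell (-0.41 and -0.33, with -1.18 and -1.09 by library total). The list of mTORC1, its regulators and translation kinases also held PAIP1, PAIP2 and PDCD4. Of its 16 genes 8 rose and 4 fell, with a median of 0.23. PAIP1 and PAIP2 were among the rises (0.19 and 0.52, with -0.57 and -0.24 by library total), and PDCD4 was not called. MLST8, a subunit of mTORC1, rose by 0.79 ± 0.07 and its inhibitor TSC2 by 0.53 ± 0.06, with 0.03 and -0.23 by library total. The 4 falls, named after their values were seen, were the kinase MTOR itself (-0.42 ± 0.06, edgeR adjusted p = 0.000119), its mTORC1 subunit RPTOR (-0.81 ± 0.16, adjusted p = 0.000957), TSC1 (-0.68 ± 0.11) and LARP1 (-0.25 ± 0.05). By library total they were -1.18, -1.57, -1.44 and -1.01. Of 6 eIF2 kinases and phosphatase subunits 2 rose and 2 fell. PPP1R15A, which directs the phosphatase to eIF2, went from 77.1 ± 3.71 to 213 ± 1.75 CPM (1.47 ± 0.05, 0.71 by library total), and the amino acid sensor EIF2AK4 rose by 0.65 ± 0.06, or -0.10 by library total. The kinases EIF2AK2 and EIF2AK3 fell (-0.47 and -0.51, with -1.23 and -1.26 by library total). Among 9 translation factors of mitochondria 2 rose and 1 fell, at or below the share over all genes, with a median of -0.01, among them MTIF3 (0.87 ± 0.16, 0.11 by library total) and GFM1 (-0.40 ± 0.09, -1.16 by library total).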

How the data were processed

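The authors deposited raw read counts per gene symbol and FPKM values for the same 6 libraries. Per the submitters' processing notes the build is hg38; the sources used here do not name the aligner, counter, annotation or strand setting. Count divided by FPKM gave the same length in all libraries within 1 percent for the 63 members with at least 200 reads, and that length can be long (37915 bases for EIF3E), so FPKM levels of different genes are approximate. Per the labels' protocols libraries were strand-specific and poly(A)-selected.

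Main tests used edgeR 4.0.16 under R 4.3.3 on the counts (filterByExpr with minimum count 10 and minimum total 15, TMM, quasi-likelihood F test, group as sole term). They were run on simulated counts too. Those held as many rises as falls and no shift in the mitochondrial share, so that run could not judge the scaling. The standard error is the size of the log2 fold change over the square root of F. Alternatives used DESeq2 1.42.0, and limma 3.58.1 on log2 FPKM for genes with at least 0.5 FPKM in 3 libraries. Gene coordinates are those of GENCODE release 29 (GRCh38); spans, promoters and their positions are RefSeq's (GRCh38.p14). Members and lists were chosen with earlier results of these data known. The named genes were 15 set by role, their paralogues, and the largest called changes in each direction up to 8, at a mean of at least 5 CPM; the remaining eIF2 and eIF3 subunits, EIF2B members, EIF4B, EIF4H, EIF4ENIF1, EIF1AD, EIF2A, EEF1D, EIF5AL1 and the enzymes were added after their values were seen. Libraries of a group differed beyond counting noise, so none was taken for a repeat.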

Additional observations from a re-analysis of the deposited data

How the results depend on the processing

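Scaling moved the 33 rises most, the 3 falls were called under either scaling, and small changes were lost when a library was left out (EIF2D and EIF1AD in 5 of 6 fits, EIF2B1 and GSPT1 in 4). By library total there were 5 and 40 (all genes 589 and 9938), by limma on log2(FPKM + 1) 5 and 40 (588 and 9048) and on log2(FPKM + 0.1) 5 and 39 (582 and 9009), and the median of the members became -0.49, -0.35 and -0.42. Among the genes named with a tested value, log2 fold changes that changed sign under these 3 settings, in that order, were EIF2S1 (-0.53, -0.49, -0.52), EIF2B5 (-0.51, -0.45, -0.50), EIF4E (-0.62, -0.48, -0.60), EIF4A1 (-0.0582, -0.0331, -0.0561), EIF4EBP1 (-0.13, -0.13, -0.13), EEF2 (-0.13, -0.12, -0.12), ETF1 (-0.67, -0.63, -0.66), GSPT1 (-0.61, -0.56, -0.60), PABPC1 (-0.68, -0.67, -0.68), EIF1AX (-0.73, -0.63, -0.72), EIF4E2 (-0.50, -0.38, -0.49), EIF4G2 (-0.74, -0.72, -0.74), EIF4A2 (-0.63, -0.60, -0.62), EEF1A2 (-0.18, -0.16, -0.18), EIF5A2 (-0.58, -0.37, -0.55), EIF3F (-0.16, -0.14, -0.15), EIF3B (-0.74, -0.71, -0.73), EIF3D (-0.46, -0.45, -0.46), EIF3E (-0.36, -0.30, -0.35), EIF3H (-0.33, -0.32, -0.33), EIF3I (-0.24, -0.23, -0.24), EIF3L (-0.31, -0.29, -0.31), EIF3M (-0.45, -0.41, -0.44), EIF2S2 (-0.11, -0.11, -0.11), EIF2S3 (-0.72, -0.68, -0.71), EIF4B (-0.41, -0.39, -0.41), EIF1AD (-0.41, -0.34, -0.41), EIF2A (-0.25, -0.22, -0.24), EIF2B1 (-0.50, -0.45, -0.50), EIF2B2 (-0.32, -0.23, -0.30), EIF2B4 (-0.54, -0.46, -0.54), EIF4H (-0.68, -0.67, -0.68), EIF5AL1 (-0.72, -0.57, -0.70) and EEF1AKMT4 (-0.0664, -0.0596, -0.0685), and by library total EEF1A1 (-0.000707). That list holds members alone. Of the named genes that are no members, PELO, TSC2, PAIP1, PAIP2 and EIF2AK4 also changed sign by library total, with the values given above. All 3 settings share the scaling by total, under which the median gene is at -0.77. Without a count filter 6 members were lower, and EIF4G2 and EIF3B stood at -0.00782 and -0.00208. DESeq2, DESeq2 size factors, a stricter count filter and leaving out the mitochondrial genome before TMM each gave 33 and 3. Adding replicate number as a block, 32 rose and 2 fell; GSPT1 (adjusted p = 0.0928) and EIF2D (0.0675) were lost and EIF4A3 turned to 0.0629, but the numbers do not pair the libraries (correlations of -0.02, -0.01 and -0.02). Leaving out 1 library gave 30 to 31 rises, 2 to 3 falls and medians of 0.25 to 0.31, and sign changes in EIF3A (-0.0575 to 0.0313), EIF1AX (-0.0651 to 0.14), EIF4G2 (-0.0091 to 0.0298), EIF4A3 (-3.77 to 2.77), EIF4EBP2 (-0.0506 to 0.0553), EIF3B (-0.0175 to 0.0368), EIF3C (-0.69 to 0.59), EIF2S3 (-0.00792 to 0.0653), EEF1D (-1.34 to 1.03), EIF2B3 (-0.14 to 0.13), EIF5AL1 (-0.0337 to 0.11) and EEF2K (-1.07 to 0.0931); the cause was not tested. Pyrimidine tracts with at least 6 C or T after the C were found in 27.5% of members (21.7% of those not listed as TOP mRNAs) and 13.4% of all promoters, and with the C at the start itself in 23.5% (17.4%), 4.04% and, for ribosomal protein genes, 64.6%. All promoters gave 21.1% within 5 bases and 50.8% within 20. At 8 to 78 reads a library, a difference in EEF2K was not detectable within its standard error of 0.59.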
